A study of Arabidopsis thaliana with 36 samples.

Results

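The cytosolic 40S ribosomal protein genes of Arabidopsis thaliana were followed in shoots and roots of control plants over 24 h. Members were those of 60 listed loci of cytosolic small-subunit proteins that had a probe set, a group of short array probes for one transcript, assigned to 1 gene. This gave 32 genes, each with 1 probe set, for 18 of the 25 listed proteins. Of the other 28 loci, 11 were named only by probe sets of several genes and 17 were named by no probe set in the table used here. The 32 probe sets were among 22810 on the array and 15091 that passed a filter on low signals, and all 32 passed. The protein of each locus follows the published nomenclature of Arabidopsis ribosomal proteins and not the probe table.

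The 40S subunit binds mRNA, scans for the start codon and holds the site where codon and anticodon pair. It is built in the nucleolus from 18S rRNA and proteins that are needed in nearly equal amounts, and growing tissue such as the root tip makes many ribosomes. Arabidopsis carries small families of paralogues for most of these proteins, so that a protein of 1 gene in animals is often encoded by several genes in this plant. Transcription and translation of ribosomal protein genes in plants are known to depend on sugar, light and the TOR kinase pathway.

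Plants were of the Col-0 accession, grown on Murashige and Skoog medium in boxes with rafts under 16 h days. They served as the untreated arm of a stress series: sampling began on day 16, 3 h into the light period, and the control boxes were moved and opened and their rafts lifted as for treated plants. No stress was applied in any group used here. Shoots and roots were each taken at 0, 0.25, 0.5, 1, 3, 4, 6, 12 and 24 h, with 2 arrays per tissue and time, 36 arrays in all. The labels do not say whether the 2 arrays came from separate plants, so p-values measure the spread between these samples, which may be technical. Time in the experiment and time of day cannot be told apart, and the 24 h samples were harvested as many hours after lights-on as those of 0 h.

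Values were MAS5 signals, brightnesses scaled by the authors so that the trimmed mean of every array lay near 100, and differences are given on the scale of log2(signal + 10), which understates the change of dim probe sets. The correlation between the 2 arrays of a group ranged from 0.971 to 0.992. Labels of tissue fitted the marker genes: 6 photosynthesis markers summed to between 20021 and 25962 in shoots but to between 153 and 306 in roots, and 6 root markers to between 470 and 2112 in shoots but to between 6844 and 8558 in roots. On every shoot array 5 of the 6 root markers lay below 40, and on every root array 3 of the 6 photosynthesis markers did. Some root markers had been picked from these data, so their sum is no independent check. The highest root marker sum among shoot arrays belonged to 1 array of the 0 h group, whose 2 arrays stood at 871 and 2112.

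The first comparison asked how the 40S genes differ between shoots and roots. Of the 32 genes, 31 were lower in shoots at an adjusted p under 0.05 (limma, Benjamini-Hochberg over all 15091 probe sets), and 60.6% of all probe sets tested were also lower in shoots. The median difference was −0.68 for the 32 genes and −0.33 for all probe sets, both as shoots minus roots on the log2 scale. Its size depended on the scaling. The 2 medians were −0.47 and −0.13 with arrays centred on their median, and −1.02 and −0.19 after quantile normalization. In 20 of the 32 genes every root array was above every shoot array, a pattern seen in 29.1% of all probe sets. One member, the S8 locus AT5G59240, was under the filter value of 40 on every shoot array and passed only through the roots, so that it had to differ between the tissues. Of the 31 other genes 30 were lower in shoots, with a median of −0.68, and in 19 the tissues did not overlap. These 31 ranged from −1.28 to −0.02. Because levels are scaled within each array, and shoots and roots are mixtures of cells, fewer cells of a type and less RNA per cell cannot be told apart.

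**Figure D1:**
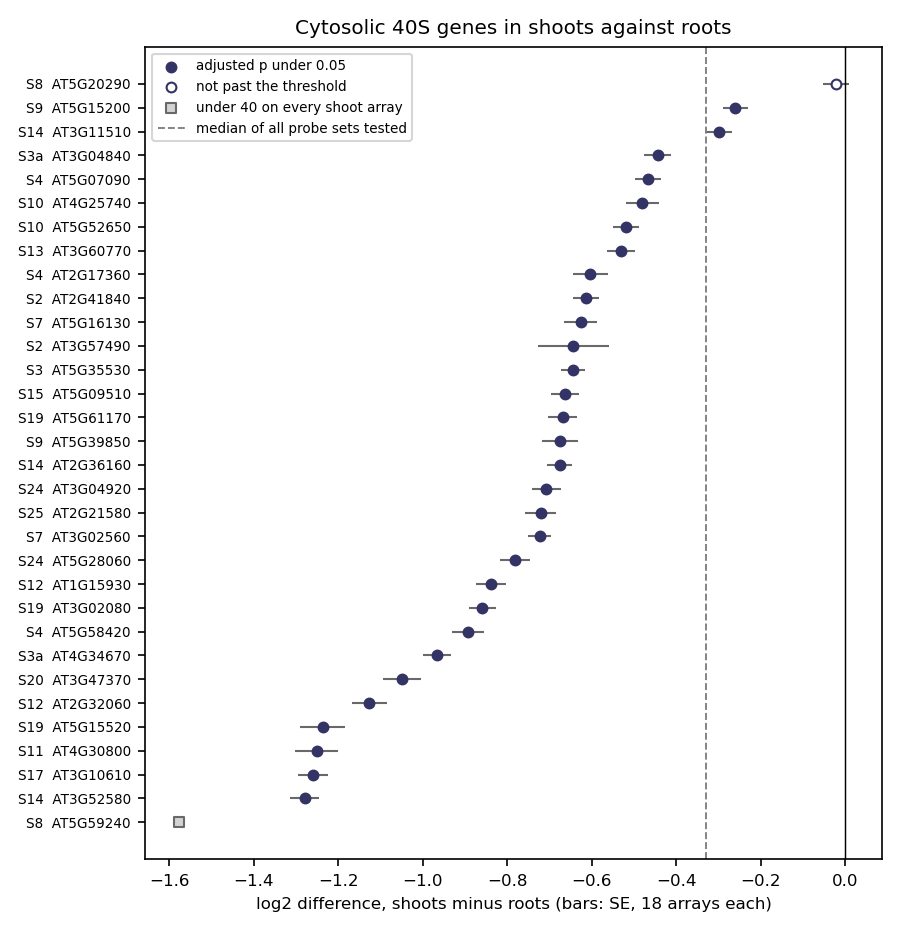
Each row is a 40S gene, labelled by protein and locus; points give the log2 difference of shoots minus roots with the SE from the fit over 18 arrays per tissue, filled where the adjusted p was under 0.05. The grey square is AT5G59240, under 40 on every shoot array. All other points but that of the S8 locus AT5G20290 are filled, and 29 of the 32 lie below the dashed median of all probe sets at −0.33.

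Proteins at the mRNA entry site of the subunit are S2, S3 and S9, known from eukaryotic ribosome structures to line the channel by which mRNA reaches the decoding site. The S3 locus AT5G35530 had shoot signals of 913, 1229 and 1637 (lowest, median and highest of 18 arrays) and root signals of 1774, 1875 and 2052, with no overlap. The S2 locus AT2G41840 likewise did not overlap, with 1245, 1422 and 1846 in shoots and 2039, 2205 and 2459 in roots. Its paralogue AT3G57490 overlapped, with 84.8, 124 and 301 in shoots and 159, 211 and 302 in roots. Of the S9 loci, AT5G15200 differed little on the scaling used here: 1927, 2303 and 2927 in shoots against 2351, 2743 and 3091 in roots. This is a difference of −0.26 ± 0.03 (SE; limma, adjusted p = 1.92e-08), and the arrays of the tissues overlapped. With each array centred on its own median signal the same difference was −0.06 (limma, adjusted p = 0.101). Under another setting it reached −0.92, so its size depends on the processing.

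At the platform and the mRNA exit, where S3a and S14 sit, paralogues stood far apart. The S14 locus AT3G52580 had 337, 410 and 588 in shoots and 992, 1065 and 1190 in roots, the largest difference of the 31 genes measured above the filter value in both tissues, at −1.28 ± 0.03 (SE; limma, adjusted p = 9.87e-21). The S14 locus AT3G11510 had 1092, 1230 and 1691 in shoots and 1413, 1504 and 1817 in roots, a difference of −0.30 ± 0.03 (adjusted p = 5.79e-09). Every root array was above every shoot array for the first locus, while the arrays of the tissues overlapped for the other. The S3a locus AT3G04840 was also among the 4 members nearest to 0, at −0.44 ± 0.03 (adjusted p = 6.05e-12), with 1185, 1327 and 1772 in shoots and 1651, 1817 and 2077 in roots.

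Among proteins of the body of the subunit, on which its assembly begins, the S8 locus AT5G59240 had signals of 12.9, 21.5 and 29.97 in shoots and 58.7, 79.1 and 115 in roots. With its shoot arrays set to the filter value of 40 it was at least 1.84-fold higher in roots, on the scale of signal + 10. Its paralogue AT5G20290 was the one member that did not pass the threshold, with 2645, 3159 and 3800 in shoots, 2925, 3148 and 3719 in roots and a difference of −0.02 ± 0.03 (adjusted p = 0.485). Its direction depended on the scaling: it was 0.18 with arrays centred on their median and −0.73 after quantile normalization, both past the threshold. The S11 locus AT4G30800 had 75.8, 105 and 130 in shoots and 207, 246 and 324 in roots, a difference of −1.25 ± 0.05 (adjusted p = 6.14e-17) with no overlap.

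Loci of proteins of the head of the subunit, which swivels as the ribosome moves along the mRNA, lay far apart among themselves. The S17 locus AT3G10610 had 162, 248 and 380 in shoots and 511, 588 and 711 in roots, a difference of −1.26 ± 0.03 (SE; limma, adjusted p = 2.87e-20). The S19 locus AT5G15520 had 79.6, 117 and 153 in shoots and 227, 273 and 324 in roots, a difference of −1.24 ± 0.05 (adjusted p = 1.53e-16); S19 is known in humans as a protein whose loss of one gene copy causes an inherited anaemia. The S12 locus AT2G32060 had 394, 470 and 738 in shoots and 913, 1061 and 1296 in roots, a difference of −1.13 ± 0.04 (adjusted p = 6.15e-18). In none of these 3 genes did the arrays of the tissues overlap. The S20 locus AT3G47370, the single member of its protein, did not overlap either, with 283, 353 and 524 in shoots and 694, 787 and 935 in roots. Other loci of head proteins differed less: the S10 loci AT4G25740 and AT5G52650 stood at −0.48 and −0.52 and the S19 locus AT5G61170 at −0.67.

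Across the 32 members, log2 root signal and the signed difference correlated with Pearson r = 0.55 and Spearman rho = 0.45. On the scaling used here brighter probe sets thus tended to differ less, and without AT5G59240 the values were 0.42 and 0.39. The relation was not computed on other scalings. The 32 differences ran from −1.58 to −0.02 here, −1.37 to 0.18 with arrays centred on their median, and −1.51 to −0.57 after quantile normalization. The correlation is a description across genes that share the same arrays. Other measures moved with the tissue. The 3 markers of dividing cells with a probe set, of 15 listed, summed to between 153 and 320 in shoots and between 337 and 539 in roots. All 3 were lower in shoots with a median of −0.71, as were 60.6% of all probe sets. The ratio of the 3′ to the 5′ actin control, a sign of RNA or labelling quality, lay between 4.04 and 12.2 in shoots and between 11.9 and 19.7 in roots. That of the GAPDH control went the other way. It lay between 1.32 and 1.97 in shoots, with a median of 1.49, and between 0.99 and 1.43 in roots, with a median of 1.05. The part of the dividing-cell markers and of these ratios in the tissue difference was not tested.

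The tissue difference was present at each of the 9 times and was not the same size throughout. Its median over the 32 genes began at −0.54 (0 h), passed through −0.74 (0.25 h) and −0.54 (0.5 h), and was smallest in size at −0.41 (1 h). It was then −0.73 (3 h), −0.87 (4 h), −0.88 (6 h) and −1.09 (12 h), the largest, and −0.64 (24 h). The median over all probe sets stayed between −0.37 and −0.24. Both root arrays were above both shoot arrays in at least 28 genes at every time, and in all 32 at 3, 6 and 12 h. The share of all probe sets with this pattern was 54.1% to 59.6% at each time.

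Genes of the rest of the translation apparatus, from lists written with earlier results of these data known, were lower in shoots as well. Of all probe sets tested, 60.6% were lower in shoots. Of 8 other 40S genes tested that are not among the members, 8 were lower with a median of −0.89, among them AT4G39200 at −2.33 ± 0.06 (SE; limma, adjusted p = 1.21e-20). Of 72 genes of the 60S subunit, 70 were lower and 1 higher, with a median of −0.73. All 13 ribosome biogenesis genes tested were lower with a median of −1.19, and 8 of 9 cytosolic translation factor genes were lower and 1 higher, with a median of −0.52. Of 14 listed nuclear genes of the plastid 30S subunit, which serves translation in chloroplasts, 3 were tested. All 3 were higher in shoots, with a median of 3.78. Coverage of the other lists was partial too: 8 of 26 listed other 40S genes, 72 of 121 of the 60S subunit, 13 of 37 of biogenesis and 9 of 46 translation factor genes. Of all 15091 probe sets, 13909 differed between the tissues in either direction. Of the TOR pathway 2 of 8 genes had a value, 1 higher in shoots and 1 lower.

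The second comparison set the paralogues of 1 protein against each other. Since brightness of one probe set cannot be compared with that of another, the log2 ratio of 2 paralogues was taken on each array and compared between samples. The 32 members form 17 pairs in 11 proteins. In 14 of the 17 pairs the ratio differed between shoots and roots (permutation test, 100000 resamples, two-sided, adjusted over the 17 pairs), and in 6 the shoot and root arrays did not overlap. Of single probe sets, 13909 of 15091 differed between the tissues in either direction, and the share among pairs of other probe sets was not computed. These counts are therefore not shown to be particular to paralogues. Without the S8 pair, which holds AT5G59240, 13 of 16 pairs differed and 5 did not overlap. Under quantile normalization, which rescales dim and bright probe sets differently, 3 of the 14 changed sign, 9 kept their sign and their call, and 2 kept their sign but lost the call. These 2 were the S4 pair AT2G17360 over AT5G07090, at −0.14 on the scaling used here and −0.08 after quantile normalization (permutation test, adjusted p = 0.181), and the S7 pair AT3G02560 over AT5G16130, at −0.10 and −0.05 in the same order (adjusted p = 0.285).

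The S8 ratio of AT5G20290 over AT5G59240 was 6.37, 6.65 and 7.10 in shoots and 4.73, 5.16 and 5.47 in roots (log2; lowest, median and highest of 18 arrays). The measured difference of 1.56 is given without a test, since the filter fixed the direction of AT5G59240. With the shoot arrays of that locus set to the filter value of 40, the ratio was at least 1.81-fold higher in shoots. The measured value was 1.96 with no pseudocount, 0.88 with a pseudocount of 50 and 0.67 after quantile normalization.

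The S14 ratio of AT3G11510 over AT3G52580 was 1.29, 1.499 and 1.67 in shoots and 0.26, 0.54 and 0.68 in roots. It was higher in shoots by 0.98 ± 0.02 (SE; permutation test, adjusted p = 1.7e-05), 1.97-fold, with no overlap. It stayed between 0.82 and 0.998 under the pseudocounts and quantile normalization tried. The third S14 gene, AT2G36160, lay between: its ratio over AT3G52580 was higher in shoots by 0.60 ± 0.02, and its ratio over AT3G11510 was lower by −0.38 ± 0.02, both at adjusted p = 1.7e-05 by the same permutation test and without overlap of the tissues. The 3 loci of this 1 protein thus had 3 different tissue differences.

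In S3a, the ratio of AT3G04840 over AT4G34670 was 0.20, 0.51 and 0.78 in shoots and −0.23, −0.06 and 0.12 in roots, higher in shoots by 0.52 ± 0.04 (SE; permutation test, adjusted p = 1.7e-05). In S4, a protein of the body, the ratio of AT5G07090 over AT5G58420 was higher in shoots by 0.43 ± 0.03, and in S19 the ratio of AT5G15520 over AT5G61170 was lower in shoots by −0.57 ± 0.04, at the same adjusted p. The S3a pair and, by a hair, this S19 pair had no overlap between tissues, and the S4 pair did. The S19 pair fell to −0.16 after quantile normalization, while the S3a pair stood at 0.51.

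Of the 3 pairs with a change of sign, the S9 ratio of AT5G15200 over AT5G39850 was higher in shoots by 0.41 ± 0.04 (SE) on the scaling used here and lower by −0.35 after quantile normalization. The S19 ratio of AT3G02080 over AT5G15520 was 0.38 ± 0.05 and −0.08 in the same order, and the S12 ratio of AT1G15930 over AT2G32060 was 0.29 ± 0.03 and −0.06. The direction of these 3 pairs is therefore not settled. In the S9 pair and this S19 pair a bright probe set stands against a dim one.

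Of the 3 pairs that did not pass the threshold, S2 had a difference of 0.03 with a 95% confidence interval of −0.16 to 0.23. S10 had 0.04 with an interval of −0.05 to 0.13. S24 had 0.08 with an interval of 0.02 to 0.13 and a permutation test adjusted p of 0.062. The S10 interval leaves room for a difference of up to 0.13 on the log2 scale, and a p that misses the threshold does not show that paralogues act alike. After quantile normalization all 3 passed it, S2 at −0.59, S10 at 0.18 and S24 at 0.14.

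**Figure D2:**
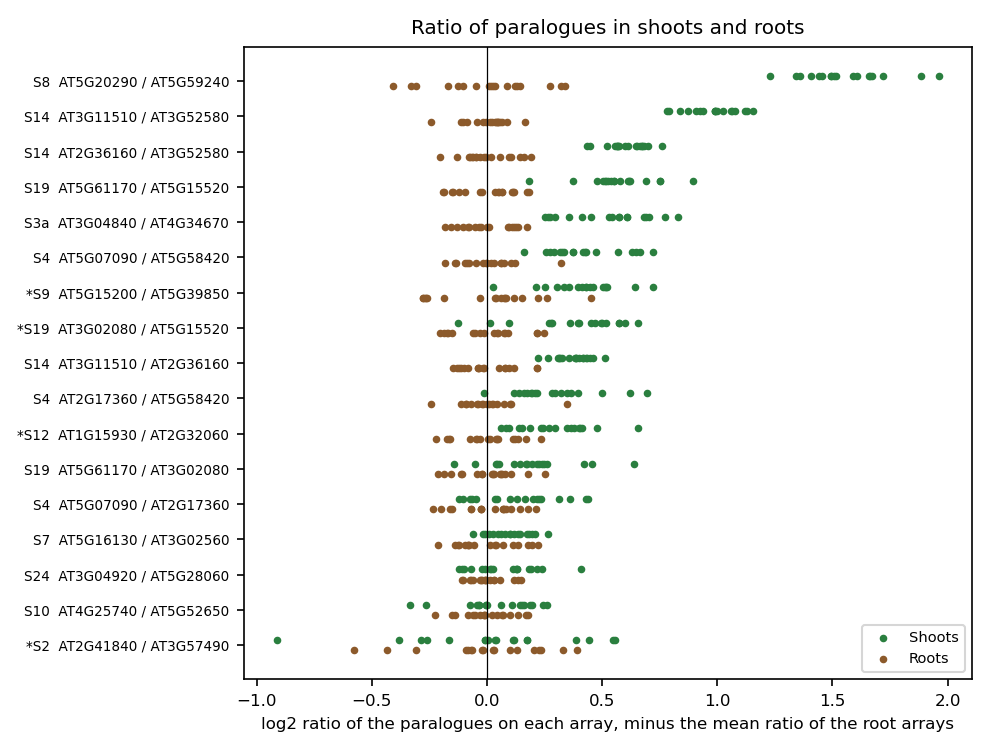
Each row is a pair of paralogues, written so that the first gene's share is the larger in shoots on the scaling used here, with an asterisk where quantile normalization turns the sign; each point is the log2 ratio on 1 array minus the mean ratio of the 18 root arrays, green for shoots and brown for roots. The S8 points of shoots, which rest on a probe set under 40, lie around 1.56 and those of the S14 pair AT3G11510 and AT3G52580 around 0.98, clear of the root points, while S10 and S2 overlap throughout.

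The third comparison asked whether the 40S genes changed over the 9 times in each tissue. In shoots 29 of the 32 passed the F test over time at an adjusted p under 0.05, where 62.6% of all probe sets passed it. In roots 2 of 32 passed, against 17.6% of all probe sets, and 9 of the 32 had an unadjusted p under 0.05. The range of group means over time had a median of 0.57 in shoots, from 0.34 to 1.34 among the genes, and of 0.27 in roots, from 0.13 to 0.61 (log2). The difference between the tissues in their time courses, tested as an interaction, passed for 18 of the 32 genes, against 40.9% of all probe sets.

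**Figure D3:**
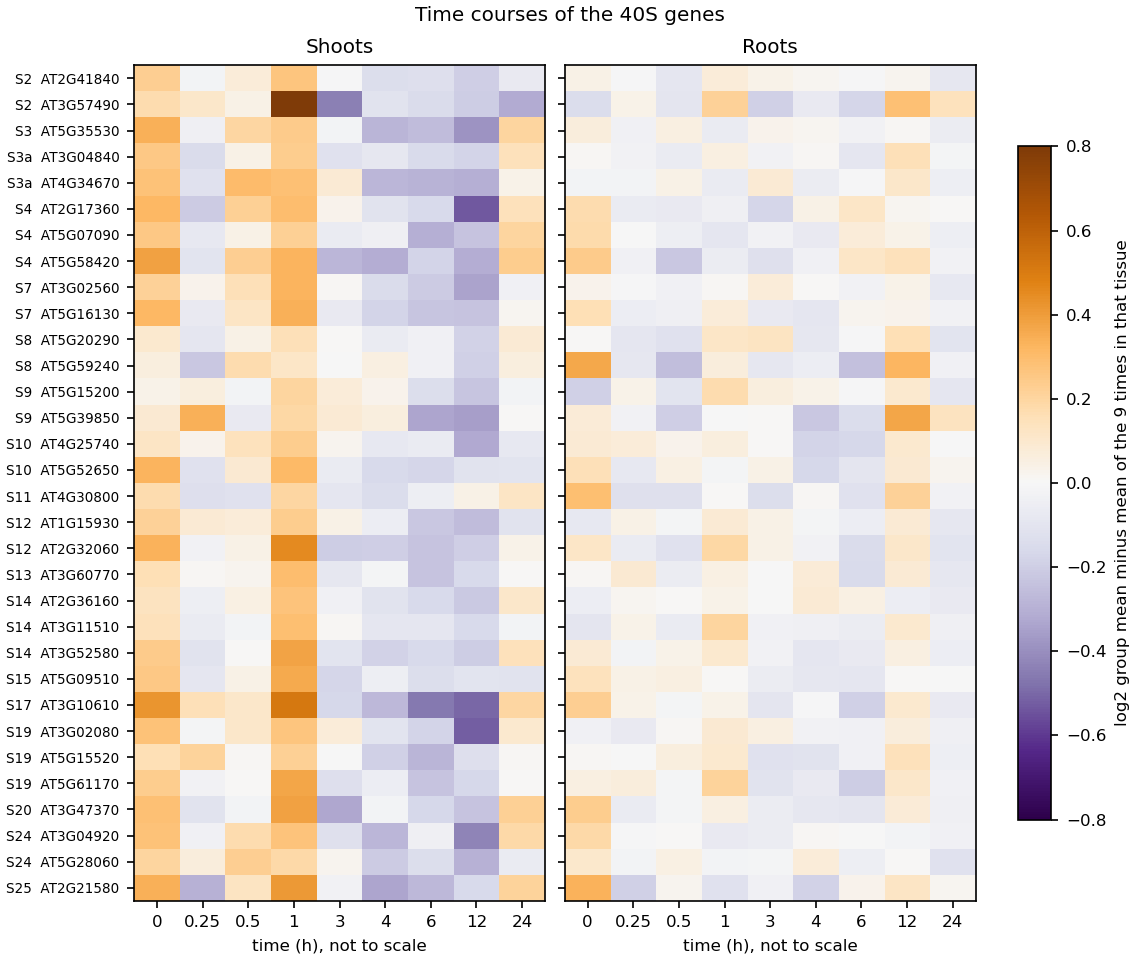
Rows are the 32 genes and columns the 9 times (h, not to scale) in shoots and roots; colour gives the log2 mean of the 2 arrays minus the mean over the 9 times in that tissue. In shoots most rows are highest at 0 or 1 h and lowest at 12 h, and the range in roots is narrower, with a median of 0.27 against 0.57.

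In shoots the 1 h mean was the highest of the 9 in 20 genes and that of 0 h in 8, where 12.9% and 8.38% of all probe sets peaked at these times. At 12 h 19 genes were lowest, against 17.4% of all probe sets, and at 6 h 6 were, against 12.5%. The remaining genes were lowest at 3 h (3 genes), 4 h (3 genes) and 0.25 h (1 gene). In 24 of the 32 genes both 12 h arrays were below every array of 0 to 1 h, which held for 15.3% of all probe sets. In 2 of the 32 every array of 3 to 6 h was below every array of 0 to 1 h, which held for 3.19%. In roots 14 genes peaked at 0 h, 8 at 1 h and 7 at 12 h, against 18.8%, 11.3% and 16.3% of all probe sets, and no gene had both 12 h arrays below every array of 0 to 1 h.

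The S17 locus AT3G10610 had the smallest p over time in shoots. Its 2 arrays read 309 and 342 at 0 h, 253 and 283 at 0.25 h, 244 and 275 at 0.5 h, and 318 and 380 at 1 h. They read 202 and 224 at 3 h, 181 and 215 at 4 h, 170 and 173 at 6 h, 162 and 171 at 12 h, and 270 and 283 at 24 h. All 8 arrays of 3 to 12 h were thus below all 10 others. The F value was 24.7 (limma, adjusted p = 4.75e-08), and that of the interaction with tissue was 9.98 (adjusted p = 0.000123).

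The S3 locus AT5G35530, of the mRNA entry channel, read 1446 and 1637 at 0 h, 1195 and 1162 at 0.25 h, 1346 and 1442 at 0.5 h, and 1441 and 1425 at 1 h in shoots. It read 1132 and 1262 at 3 h, 977 and 1015 at 4 h, 1013 and 1013 at 6 h, 937 and 913 at 12 h, and 1440 and 1359 at 24 h. The 24 h arrays were thus within the range of the first hour, and the 4 to 12 h arrays were below it. The F value was 19.3 (limma, adjusted p = 3.55e-07) and that of the interaction 9.82 (adjusted p = 0.000139), while its root arrays kept between 1774 and 2052.

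Next in order of p stood the S7 locus AT3G02560, the S3a locus AT4G34670, the S19 locus AT3G02080 and the S4 locus AT5G58420, with F values from 13.2 to 13.7 in shoots. The S19 locus AT3G02080 was lowest at 12 h, at 622 and 704, against 1167 and 1149 at 0 h and 1046 and 994 at 24 h. The S4 locus AT5G58420 was low from 3 h, at 462 and 508, against 750 and 737 at 1 h. Their interactions with tissue passed as well: F was 7.13 for AT3G02560, 7.48 for AT4G34670, 7.22 for AT3G02080 and 8.20 for AT5G58420 (limma, adjusted p from 0.000429 to 0.000975).

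**Figure D4:**
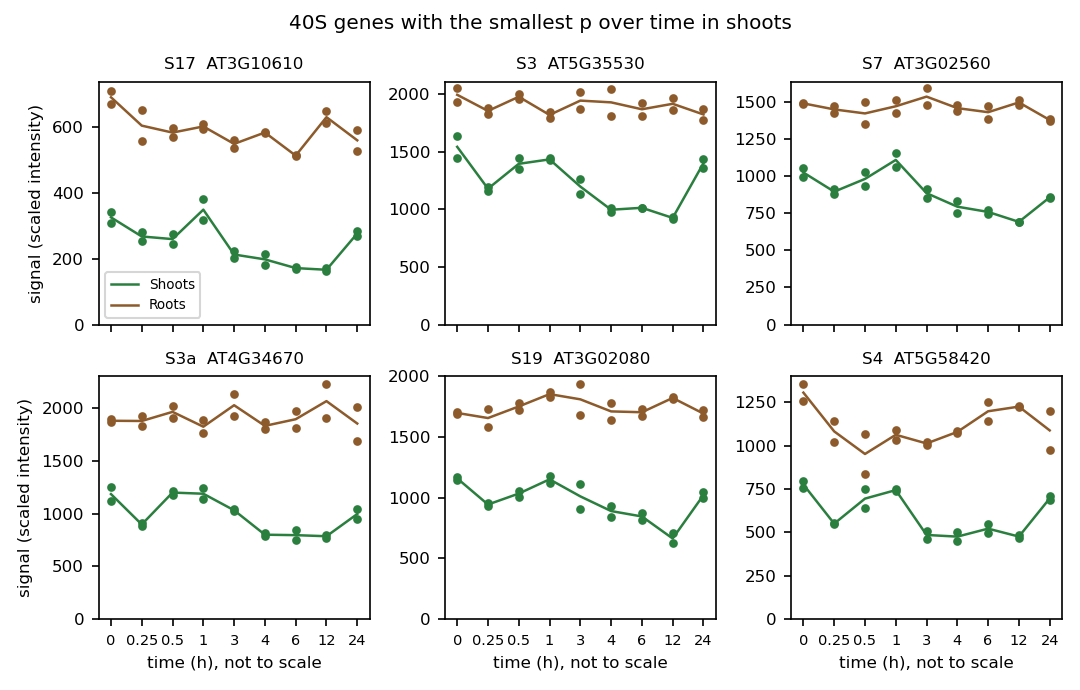
Signals (scaled intensity, from 0) of the 6 genes with the smallest p over time in shoots, at the 9 times (h, not to scale); points are arrays, lines the means of 2, green for shoots and brown for roots. In each panel shoots fall after 1 h, to 162 and 171 at 12 h for AT3G10610, and stand below roots at every time.

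The next comparisons set single times or windows against each other; those of 0.25 h and 24 h share the 0 h arrays, and those of 3 to 6 h and 12 h share the 3 to 6 h arrays, so their results are not independent. From 0 to 1 h to 3 to 6 h, 28 of the 32 genes fell in shoots, against 19.5% of all probe sets that did, with a median of −0.27 for the genes and 0.01 for all probe sets. The S17 locus AT3G10610 fell from 244, 296 and 380 (lowest, median and highest of 8 arrays) to 170, 191 and 224 of 6 arrays, by 0.60 ± 0.06 on the log2 scale (SE; limma, adjusted p = 1.15e-08). The S4 locus AT5G58420 fell from 546, 743 and 796 to 450, 498 and 548, by 0.47 ± 0.06 (adjusted p = 1.67e-06). The windows did not overlap for AT3G10610 and overlapped narrowly for AT5G58420. The S2 locus AT3G57490 went from 110, 157 and 301 to 88.7, 111 and 132, a fall of 0.54 ± 0.14 (adjusted p = 0.00274) with overlap.

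The 25S rRNA control signal of the shoot arrays moved with this contrast, from 947 to 2385 in the first window to 2073 to 2664 in the second. With it as a covariate 18 genes passed. The median difference of the 32 genes was then −0.28 and the median SE rose from 0.05 to 0.09, while calls over all probe sets went from 6147 to 3167. AT3G57490 stood at −0.57 with the covariate and did not pass (limma, adjusted p = 0.0927). The 6 root-cell markers, 5 of them below 40 on every shoot array, had a median of 0.18 in this contrast, with 1 higher and none lower. At 12 h, where most genes were lowest, the 25S rRNA signal was 1429 and 1521, within its range over 0 to 1 h. The causes of the fall were not tested. Leaving out the 0 h arrays, an alternative added after seeing the data, left 27 of the 32 genes past the threshold.

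In roots 1 gene fell between the same windows, against 3.94% of all probe sets. It was the S19 locus AT5G61170, at −0.21 ± 0.06 (SE; limma, adjusted p = 0.0222), a call that was lost without any of 4 single root arrays, the first of 1, 3 and 6 h and the second of 4 h, with adjusted p from 0.051 to 0.076. The fall was larger in shoots than in roots for 14 of the 32 genes, against 13.1% of all probe sets, in a contrast of the contrasts that was added after seeing the data. The largest were the S4 locus AT5G58420 at −0.47 ± 0.09 (limma, adjusted p = 0.000267), the S17 locus AT3G10610 at −0.43 ± 0.08 (adjusted p = 0.000329) and the S3 locus AT5G35530 at −0.37 ± 0.06 (adjusted p = 0.00014), each as shoots minus roots.

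From 3 to 6 h to 12 h, 8 of the 32 genes fell further in shoots, against 13.4% of all probe sets. The root-cell markers moved with this contrast: 2 of 6 were lower, with a median of −0.41. Their sum went from 669 to 1578 at 3 to 6 h to 523 and 560 at 12 h. As 5 of the 6 lay below 40 on every shoot array, this sum rests mainly on the other marker. The part of the markers in the result was not tested. The S19 locus AT3G02080 fell by 0.45 ± 0.08 (SE; limma, adjusted p = 0.000134). The S4 locus AT2G17360 fell by 0.45 ± 0.10 (adjusted p = 0.00156), from 560, 592 and 662 (lowest, median and highest of 6 arrays) at 3 to 6 h to 452 and 420 at 12 h. The S9 locus AT5G39850 stood at −0.29 ± 0.10 (adjusted p = 0.0361), a call lost with the 25S rRNA covariate (adjusted p = 0.246), without the first 12 h array (adjusted p = 0.397) and without any of 3 other shoot arrays. The count itself rested on single arrays: without the first shoot array of 12 h it was 2, without the second 4, and without the second of 3 h or of 4 h it was 4 and 5.

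In roots 1 gene rose at 12 h, against 3% of all probe sets. It was the same S9 locus, AT5G39850, with 222 and 224 at 12 h against 125 to 178 at 3 to 6 h and a difference of 0.49 ± 0.10 (SE; limma, adjusted p = 0.00594). Both 12 h arrays were above all 6 of 3 to 6 h, and without either of them the adjusted p was 0.108 and 0.0892. The contrast of shoots minus roots, added after seeing the data, passed for 6 genes, against 7.29% of all probe sets. It was −0.78 ± 0.14 for AT5G39850 (limma, adjusted p = 0.000648) and −0.52 ± 0.11 for AT3G02080 (adjusted p = 0.00263). One of the 6 was AT5G59240, whose shoot signals were all under the filter value. Its call was lost with no pseudocount (adjusted p = 0.0519), after quantile normalization (adjusted p = 0.0623) and without the first 12 h array of either tissue, so the contrast is read for the 5 others. Without single 12 h arrays the count of 6 was 2 to 3.

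At 0.25 h 13 of the 32 genes were lower than at 0 h in shoots, against 6.66% of all probe sets, with medians of −0.29 and 0.03. The S25 locus AT2G21580, whose protein is known from yeast and human cells for its part in initiation at viral internal ribosome entry sites, read 355 and 295 at 0 h and 199 and 210 at 0.25 h, and fell by 0.64 ± 0.11 (SE; limma, adjusted p = 0.00067). The S4 loci AT2G17360 and AT5G58420 fell by 0.53 ± 0.12 (adjusted p = 0.00609) and 0.49 ± 0.11 (adjusted p = 0.00609), both calls lost without the first 0 h array. The arrays of the 2 times did not overlap in any of these 3 genes. Over these 15 minutes the 25S rRNA signal went from 947 and 1033 to 2060 and 2281, and with it as a covariate no gene passed. The median difference of the 32 genes was −0.32 with the covariate, while the median SE rose from 0.10 to 0.16 and calls over all probe sets went from 2173 to 129. The largest differences shrank: AT2G21580 stood at −0.33, AT2G17360 at −0.23 and AT5G58420 at −0.30. The root-cell markers were also lower at 0.25 h: 5 of 6 were below 0 and 2 of these passed, with a median of −0.70. Their sum went from 871 and 2112 to 535 and 630. As 5 of the 6 lay below 40 on every shoot array, this sum rests mainly on the other marker. The part of the markers in the result was not tested. The count of 40S genes was 8 after quantile normalization, 21 with arrays centred on their median, 3 without the first 0 h array, and 4 and 6 without either 0.25 h array.

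In roots the S25 locus AT2G21580 was the 1 gene that was lower at 0.25 h, against 2.27% of all probe sets, and it read 514 and 561 at 0 h and 375 and 366 at 0.25 h. The difference was −0.52 ± 0.11 (SE; limma, adjusted p = 0.0103), lost with the 25S rRNA covariate (adjusted p = 0.676) and without the second array of 0 h or of 0.25 h. No gene passed for shoots minus roots, against 0.736% of all probe sets, and 4 had an unadjusted p under 0.05 in limma. The early fall is therefore not shown to differ between the tissues.

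At 24 h 5 of the 32 genes were lower than at 0 h in shoots, against 7.76% of all probe sets, and none differed in roots, against 0.577% that were lower, with 7 of 32 at an unadjusted p under 0.05 in limma. The root-cell markers, 5 of the 6 below 40 on every shoot array, were lower in shoots at 24 h as well. Of the 6, 6 were below 0 and 3 past the threshold, with a median of −0.78 and sums of 555 and 919. Their part in the result was not tested. The S10 locus AT5G52650 read 980 and 982 at 0 h and 670 and 785 at 24 h, a difference of −0.43 ± 0.09 (SE; limma, adjusted p = 0.00291). The S15 locus AT5G09510 was at −0.37 ± 0.10 (adjusted p = 0.0159) and the S12 locus AT1G15930 at −0.32 ± 0.10 (adjusted p = 0.0375). All 3 calls were lost without the first 24 h array, where no gene passed; without the second 2 passed and without the first 0 h array 1 did. The contrast of shoots minus roots passed for none, against 4.38% of all probe sets, with 3 at an unadjusted p under 0.05.

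Of the 2 genes that passed over the 9 times in roots, the S9 locus AT5G39850 had F = 4.37 (limma, adjusted p = 0.0248) and was lost without either 12 h array. The S25 locus AT2G21580 had F = 4.33 (adjusted p = 0.0257) and was lost with the 25S rRNA covariate (adjusted p = 0.455) and without either 0 h array.

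Ratios of paralogues over time passed in 2 of 17 pairs in shoots (permutation test of F, 100000 resamples, adjusted over the pairs). The share among pairs of other probe sets was not computed for this test in either tissue. The S4 ratio of AT5G07090 over AT5G58420 was 0.33 and 0.41 at 0 h, 0.35 and 0.44 at 1 h, 0.72 and 0.70 at 3 h, 0.74 and 0.80 at 4 h, and 0.39 and 0.36 at 6 h (adjusted p = 0.00935). It was thus higher at 3 and 4 h than at the hours on either side. The S12 ratio of AT1G15930 over AT2G32060 was 1.26 and 1.24 at 1 h and 1.59 and 1.84 at 3 h (adjusted p = 0.0186). The S24 ratio was next, at an adjusted p of 0.0543.

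In roots no pair passed, and 4 had an unadjusted p under 0.05. For 3 of them, S9, S14 AT2G36160 over AT3G52580 and S14 AT3G11510 over AT3G52580, the permutation test adjusted p was 0.0509, so near the threshold that resampling error could carry it across. Counting all 34459425 arrangements of 18 arrays into groups of 2, an exact test added after seeing the data, gave 0.0512 for the same 3 pairs and kept the counts of 2 and 0. On simulated ratios this test found 8 of 50 pairs with a smooth course of 0.6 in shoots, so that a pair that did not pass is not shown to keep a constant ratio.

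The other lists followed the shoot time course in part. Between 0 to 1 h and 3 to 6 h in shoots 8 of 8 other 40S genes and 54 of 72 genes of the 60S subunit fell. So did 10 of 13 biogenesis genes and 6 of 9 translation factor genes, against 19.5% of all probe sets. In the 60S subunit 1 gene rose. The 3 plastid 30S genes tested rose. The 3 dividing-cell markers had a median of 0.15 in that contrast, with 1 higher and none lower.

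**Figure D5:**
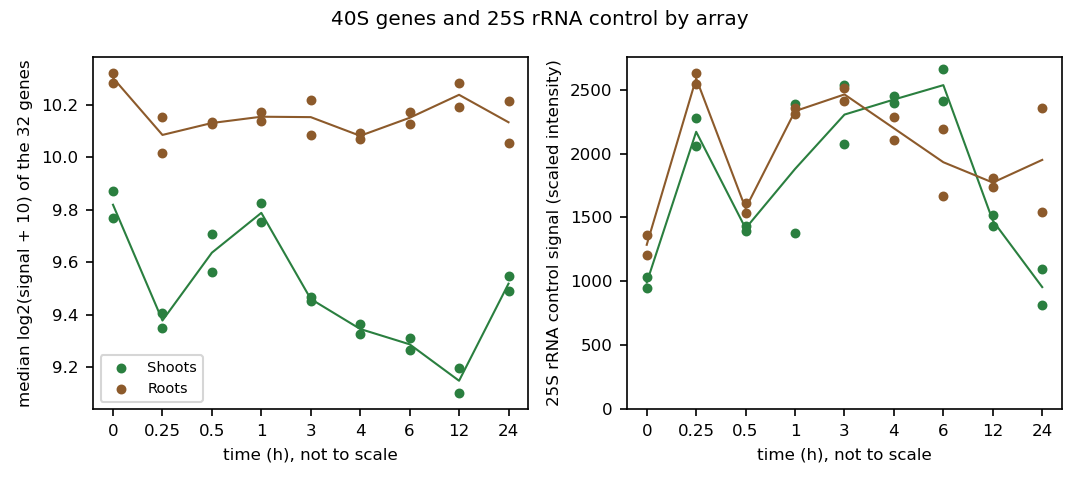
Left, the median log2(signal + 10) of the 32 genes on each array; right, the 25S rRNA control signal (scaled intensity, from 0), both against time (h, not to scale), with points for arrays and lines for means of 2. The shoot median is lowest at 12 h, at 9.10 and 9.20, where the 25S signal is 1429 and 1521, and the root median stays between 10.02 and 10.32.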

How the data were processed

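RNA of shoots and roots was measured on 36 one-colour expression arrays. The deposited values are MAS5 signal intensities, made by the authors with MAS5 per the submitters' processing notes, which name the program without a version. On checking, the 2% trimmed mean of each array was 100.007 to 100.01. Gene assignments came from the platform's probe table; of 13513 probe sets with 1 gene, 13436 matched the reference gene table. Probe sets had to reach a signal of 40 on 2 or more arrays, log2(signal + 10) was taken, and 18 group means were fitted together with limma 3.58.1 in R 4.3.3 (18 residual and 4.06 prior degrees of freedom), with Benjamini-Hochberg adjustment over 15091 probe sets and a threshold of 0.05. Paralogue ratios were tested in Python 3.11.15 with numpy 2.4.6 by permutation.

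Members and lists were chosen with earlier results of these data known. Genes with full values were, per contrast, the 6 largest and 4 nearest 0 between tissues, the 6 smallest p over time, and the 3 largest each way between times; of the pairs, the 8 largest and those not past the threshold. Other members named by protein group were picked after their values were seen. Same-numbered shoot and root arrays of the same time did not deviate together (correlations −0.115 to 0.05), so no pairing was used. Same-numbered arrays of different times were not compared in this way. On simulated data with 15091 genes, limma recovered 31% of changes of 0.5 and 84% of changes of 1 for a contrast of 2 groups. On simulated ratios, a tissue difference of 0.3 was found in 49 of 50 pairs, and 1 of 200 unchanged pairs was called; this simulation replaced a first one of 40 pairs after its result was seen, which found 10 of 10 tissue differences, 0 of 10 changes at 12 h alone and called 2 of 20 unchanged pairs. The number of arrays limits the precision. Alternatives were other pseudocounts, filters, scalings, priors, covariates and left-out arrays.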

Additional observations from a re-analysis of the deposited data

Results flagged for a closer look

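The time courses of shoots and roots differed by the interaction test in 18 of the 32 genes, against 40.9% of all probe sets. The F values were 9.98 for AT3G10610, 9.82 for AT5G35530, 8.20 for AT5G58420, 7.48 for AT4G34670, 7.22 for AT3G02080 and 7.13 for AT3G02560. The fall from 0 to 1 h to 3 to 6 h differed between the tissues in 14 genes, against 13.1% of all probe sets. Shoots minus roots stood at −0.47 for AT5G58420, −0.43 for AT3G10610 and −0.37 for AT5G35530. The step from 3 to 6 h to 12 h differed in 6 genes, against 7.29% of all probe sets, with −0.78 for AT5G39850 and −0.52 for AT3G02080. One of the 6 was AT5G59240, under 40 on every shoot array, so the step is read for the 5 others. Each of these results was picked out because the test of the difference between the tissues passed the threshold.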

How the results depend on the processing

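Counts are of members past the threshold. The shoot-root count, of both directions, was 31 to 32, the shoot time course 25 to 30 and the interaction 12 to 22 under all settings tried. With arrays centred on their median the shoot-root count held 30 genes lower in shoots and 1 higher, AT5G20290. With the 25S rRNA covariate shoots had 0 at 0.25 h, 18 at 3 to 6 h and 2 at 12 h, and roots 0, 2 and 2. After quantile normalization shoots had 8 at 0.25 h and 3 at 24 h, and roots 2 at 3 to 6 h, 3 at 12 h and 4 over time. Centred on the array median, shoots had 21 at 0.25 h and 5 at 12 h. With a pseudocount of 50 roots had 2 at 0.25 h, 2 at 3 to 6 h, 2 at 12 h, 8 over time and 3 pairs over time. A filter of 100 gave roots 2 at 3 to 6 h and 2 at 12 h, and no filter gave shoots 3 at 24 h. Fitted alone, shoots had 5 at 12 h and 2 at 24 h, and roots 2 at 12 h and 1 over time; a trended robust prior gave 6 over time in roots. The causes were not tested. Leaving out 1 array, shoots ranged from 3 to 15 at 0.25 h, 2 to 9 at 12 h and 0 to 7 at 24 h, and roots from 0 to 1 at 0.25 h, 0 to 2 at 3 to 6 h, 0 to 2 at 12 h, 0 to 1 at 24 h and 1 to 4 over time. Shoots minus roots ranged from 2 to 8 at 12 h and 0 to 1 at 24 h, and pairs over time from 1 to 3 in shoots and 0 to 2 in roots. With a replicate block the interaction count was 16 and that of shoots against roots 31; the block moved no count by over 1.5 times. Reversed values were 0.18 for AT5G20290 centred on the array median; the S2 pair at −0.0813 with a pseudocount of 50, −0.59 after quantile normalization and −0.00281 to 0.0867 with 1 array left out; and, after quantile normalization, the S9 pair at −0.35, the S12 pair at −0.0605 and the S19 pair AT3G02080 over AT5G15520 at −0.0818. Of 62 member and pair values, 38 kept direction and side of the threshold under every setting. Signal over background limits AT5G59240 in shoots.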
